A study of Mus musculus with 6 samples.

Results

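Interferon-stimulated effector genes encode the proteins with which a cell blocks, senses or degrades a virus. The 44 genes described here are a list of such effectors without the OAS, IRF, STAT and TRIM genes, and they were matched by symbol to the authors' deposited gene table. All 44 were found once among its 23793 rows, and the authors had tested 40 of them, out of 10657 rows tested in all.

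The study sequenced mRNA of i660BM cells, a C57BL/6 pro-B line in which doxycycline switches on PU.1. Such cells stand early in the B lineage. The Spi1 gene encodes PU.1, a transcription factor of the ETS family that can bind DNA alone or together with the interferon regulatory factors IRF4 and IRF8. The non-induced group held 3 libraries from cells without doxycycline, and the induced group 3 libraries from cells after 48 h in doxycycline at 70 ng/ml. Both groups carried the inducible system and grew with interleukin 7. Doxycycline and induced PU.1 cannot be told apart, because each library had both or neither. The labels do not say if replicate libraries were grown as separate cultures, and the authors' p-values may therefore measure technical spread.

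The values are FPKM, fragments scaled to transcript length and library size, with 1 value per group in the authors' deposited table, so no spread between libraries can be shown. A gene is said to be called where it was tested and its q-value, the authors' p-value adjusted over all tested rows, was under 0.05. Log2 changes are induced over non-induced. The figure after ± is an implied standard error, obtained by dividing the log2 change by Cuffdiff's test statistic, and it assumes that the statistic is the ratio of the change to its error. Depth, read from the spacing of low FPKM values, was about 119000000 fragments for the non-induced and 121700000 for the induced group, which is 39700000 and 40600000 a library.

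The authors' deposited table put Spi1 itself at 36.0 FPKM before and 246 FPKM after induction (log2 2.78 ± 0.12). Of 13 pro-B markers 12 were tested and 8 called higher (5 of them at least 1.5-fold), against 19.0% of all tested rows. The 13 summed to 3567 and 5020 FPKM. Il7r (43.5 to 142 FPKM), Igll1 (538 to 1083 FPKM), Vpreb1 (683 to 1197 FPKM), Dntt (2.24 to 6.90 FPKM), Rag1 (0.00348 to 0.434 FPKM) and Pax5 (98.6 to 128 FPKM) were among those called higher in the authors' deposited table. Cd79a (596 and 646 FPKM) was not called, and Kit was listed at 0 in both groups. Of 8 macrophage markers 7 were in the table, and all 4 that the authors had tested were called higher, against 19.0% of all tested rows. The 7 summed to 2.43 and 23.7 FPKM, mostly Cd68 (1.85 and 6.86 FPKM) and Lyz2 (0.361 and 15.2 FPKM). The other 2 called were Cd14 (0 and 0.995 FPKM) and Mrc1 (0.202 and 0.276 FPKM). The untested Csf1r, Itgam and Marco stood at 0.192, 0.151 and 0.0808 FPKM after induction. Among 7 plasmacytoid dendritic cell markers, Siglech (0.0389 and 3.98 FPKM) and Cox6a2 (1.00 and 2.96 FPKM) were called higher. Tcf4 (12.03 and 12.56 FPKM) was tested and not called. The untested Ccr9 (0.0148 and 0.00563 FPKM), Pacsin1 (0.00391 and 0.00192 FPKM) and Lair1 (0.00247 and 0 FPKM) were listed lower after induction. Klk1 was listed at 0 in both groups. The 7 summed to 13.1 and 19.5 FPKM, most of it Tcf4 in both groups. The 5 conventional dendritic markers summed to 0.322 and 0.838 FPKM, with only Flt3 tested and called higher. The 5 T cell markers summed to 66.2 and 46.3 FPKM, nearly all of it Lck, with Cd3e and Cd4 listed at 0 in both groups. The 4 NK markers summed to 0.0270 and 0.0312 FPKM. Bst2, 1 of the 44 genes, is also known as a plasmacytoid dendritic cell marker. The part of such cells or cell states in the results below was not tested.

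Type I interferons bind a receptor whose kinases JAK1 and TYK2 activate STAT factors, which join IRF9 and bind the interferon-stimulated response element (ISRE) in the promoters of effector genes. Interferon gamma acts at another element, called GAS. IRF factors bind the ISRE on their own as well, and PU.1 with IRF4 or IRF8 binds a related composite element in B cells, so that effector genes can also be transcribed without interferon.

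The promoter sequences are shown first, because this element defines the classical response and the rise was not uniform among genes that hold it. RefSeq promoters (GRCm38.p6, the assembly of mm10) of 300 bases, 250 before and 50 after the start site, matched 30 of the 44 genes with 36 promoters. The ISRE core was searched as GAAANNGAA on both strands. It was found in 21 of the 36 promoters (58.3%), against 8.56% of all 32851 promoters in that set. The windows below are printed on the gene's own strand with the core in capitals, which reads TTCNNTTTC where the element lies on the other strand. The first set shows genes that were called higher, without Gbp5, Ifi203 and Ifih1, which also hold the core.
Ifi44 (chr3:151749893-151749925, minus strand): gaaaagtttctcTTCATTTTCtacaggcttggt
Cxcl10 (chr5:92349082-92349114, minus strand): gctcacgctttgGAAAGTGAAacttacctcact
Ifit3 (chr19:34583362-34583447, plus strand): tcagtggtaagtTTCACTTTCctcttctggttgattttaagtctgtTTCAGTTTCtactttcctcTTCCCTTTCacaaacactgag
Ifit1 (chr19:34640768-34640825, plus strand): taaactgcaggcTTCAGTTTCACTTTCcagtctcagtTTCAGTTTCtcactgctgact
Isg15 (chr4:156200864-156200908, minus strand): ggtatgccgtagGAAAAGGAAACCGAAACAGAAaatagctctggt
Gbp2 (chr3:142620593-142620625, plus strand): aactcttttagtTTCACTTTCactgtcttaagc
Gbp3 (chr3:142559988-142560026, plus strand): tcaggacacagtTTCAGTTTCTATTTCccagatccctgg
Gbp7 (chr3:142530272-142530304, plus strand): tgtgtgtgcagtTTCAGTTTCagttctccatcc
Irgm1 (chr11:48871424-48871462, minus strand): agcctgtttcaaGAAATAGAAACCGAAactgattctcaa
The second set shows genes that were not called, without Adar and Ifitm2, which also hold the core, and last Ddx58, which was called lower.
Irgm2 (chr11:58214901-58214933, plus strand): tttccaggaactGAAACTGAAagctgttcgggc
Bst2 (chr8:71537576-71537614, minus strand): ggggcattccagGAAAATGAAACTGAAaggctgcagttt
Eif2ak2 (chr17:78882528-78882566, minus strand): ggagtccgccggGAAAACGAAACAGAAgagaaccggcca
Igtp (chr11:58199510-58199542, plus strand): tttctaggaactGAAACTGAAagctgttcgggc
Ddx58 (chr4:40239802-40239834, minus strand): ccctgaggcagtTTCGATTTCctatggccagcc
Isg15, Ifit1, Gbp3, Irgm1, Bst2 and Eif2ak2 each hold cores spaced 6 bases apart, so that they overlap, an arrangement found in 0.210% of all promoters. The windows of Igtp and Irgm2, neighbouring paralogs, are identical at 32 of 33 bases.

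Matches to the ISRE core were found in called and uncalled genes alike. Among genes with a promoter in the set, 12 of 18 called higher held it, 6 of 8 not called, 1 of 2 called lower and 2 of 2 not tested. The GAS letters TTCNNNGAA, the same on both strands, were in 11 of 36 promoters (30.6%), against 8.30% of all promoters, and in 4 of 18 genes called higher and 6 of 8 not called. An ETS-IRF composite searched as GGAANNGAA on both strands was in 8 of 36 promoters (22.2%; all promoters 8.24%), and in 3 of 18 genes called higher, Gbp5, Ifi44 and Sp100, and 4 of 8 not called, Adar, Dtx3l, Igtp and Irgm2. The PU.1 core GAGGAA was in 14 of 36 promoters (38.9%; all promoters 28.3%), in 9 of 18 genes called higher and 3 of 8 not called. GAGGAA can overlap the composite, and GAS letters can too. In Igtp matches start 45 (GAS), 40 (composite) and 34 (ISRE core) bases before the start site. There the composite overlaps both others, which do not overlap each other. These are matches of letters, not measured binding sites, and the induced PU.1 was not mapped in these data.

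**Figure D1:**
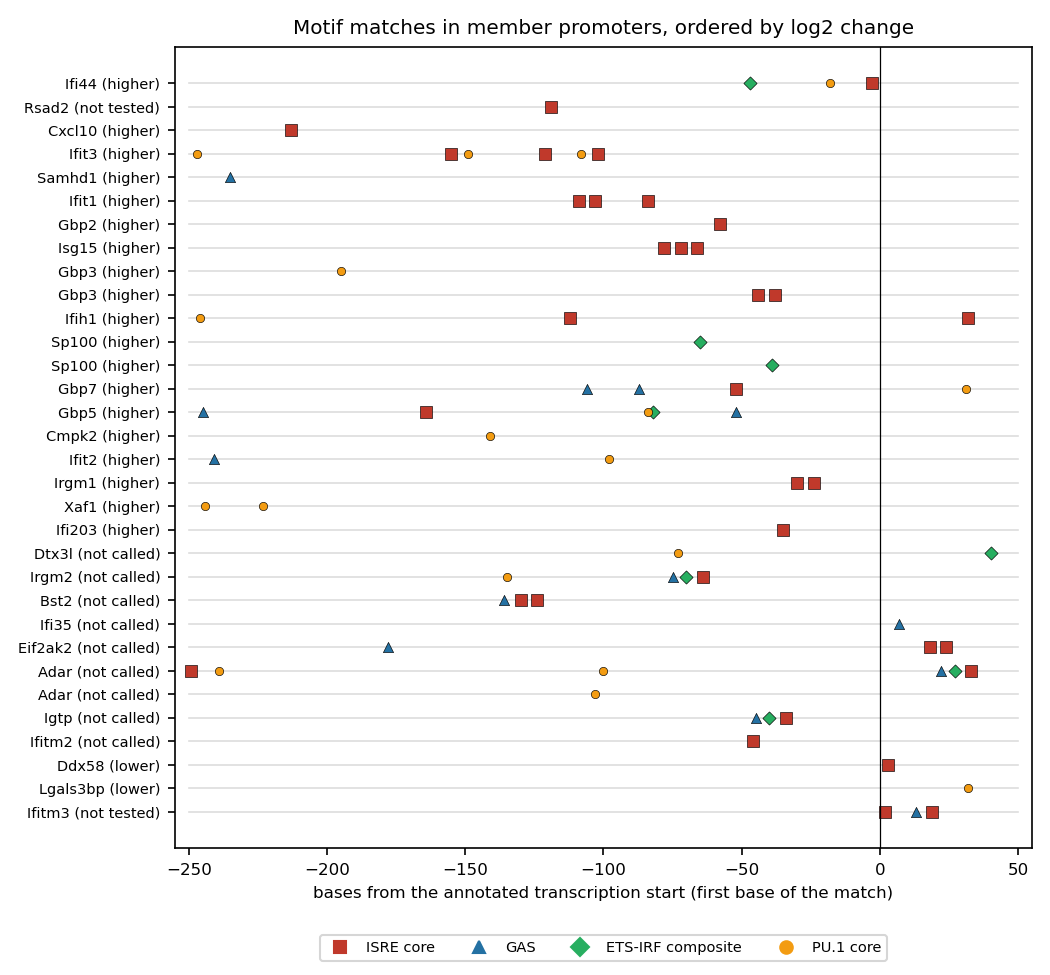
Positions of motif matches in the promoters of the listed genes, in bases from the annotated transcription start (x axis), with 1 line per promoter that holds any match, ordered by log2 change with the highest at the top and the call in brackets. Squares (ISRE core) appear beside genes called higher and beside genes not called such as Bst2, Eif2ak2 and Igtp.

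Most of the effector genes were higher after induction. Of the 40 tested genes, 29 were called higher and 2 lower (Lgals3bp and Ddx58), so that 77.5% were called, against 35.1% of all tested rows in the authors' deposited table. Over all tested rows 19.0% were called higher and 16.1% lower. The median log2 change was 0.41 over the 40 genes, with quartiles of 0.15 and 0.98, and -0.01 over all tested rows. At least 1.5-fold rises were called for 18 of the 40 (all tested rows 6.34%) and at least 2-fold rises for 9 (2.51%). With p-values taken by reading the test statistic as a normal deviate (normal p-values below), 20 of the 40 were called higher (9.00% of all rows with a statistic), and the 2 lower calls were lost. That setting removed 11 calls in all, none of them on a change above 1.31-fold.

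**Figure D2:**
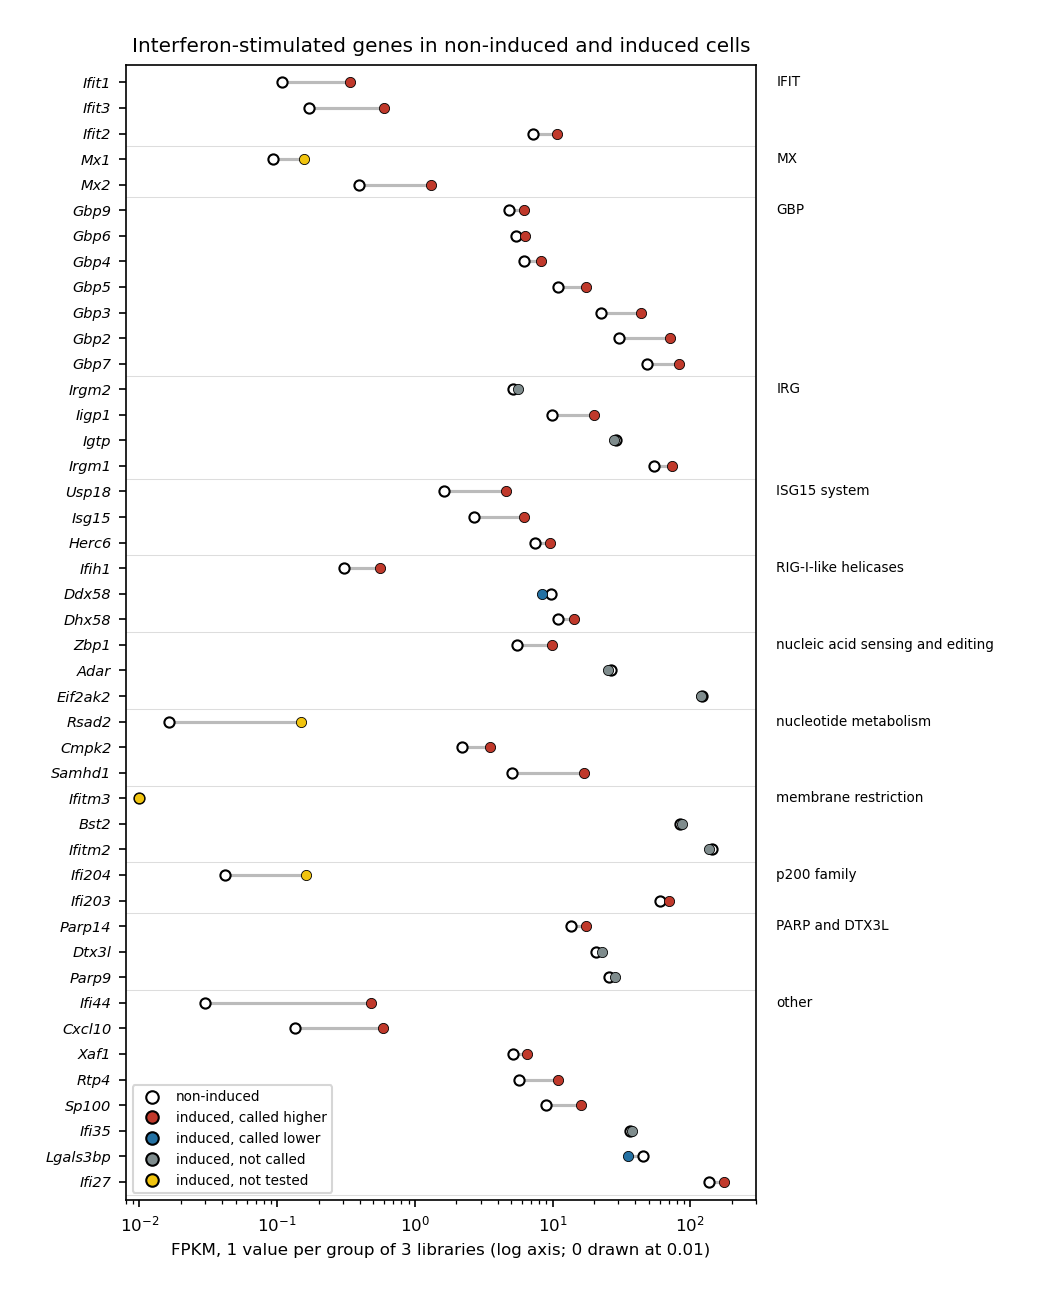
FPKM of the 44 genes in non-induced cells (open circles) and induced cells (filled circles, coloured by the authors' call) on a log axis, grouped by subfamily and role; each point is the authors' value for 3 libraries, and values of 0 are drawn at 0.01. Levels span from Ifitm3, listed at 0, to Ifi27 at 176 FPKM, and the longest steps to the right are those of Ifi44 and the untested Rsad2.

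The IFIT proteins bind viral RNA, IFIT1 by its cap, and all 3 listed genes were called higher. Ifit1 rose from 0.109 to 0.339 FPKM (log2 1.64 ± 0.48, q = 0.000287 in the authors' deposited table). For Ifit3 the levels were 0.169 and 0.597 FPKM (log2 1.82 ± 0.44). Ifit2 started far higher, at 7.18 FPKM, and reached 10.7 FPKM (log2 0.58 ± 0.16). Ifit1 and Ifit3 therefore remained below 1 FPKM after induction, and Ifit2 was 1.49-fold higher from a level more typical of an expressed gene. The 3 lie together on chromosome 19 (mm10), Ifit2 at 34550694 to 34576419, Ifit3 at 34583531 to 34588731 and Ifit1 at 34640871 to 34650009, all on the plus strand. Their low values rest on few fragments, about 34 and 110 for Ifit1 and 35 and 130 for Ifit3. Of the 50-base words in Ifit3 transcripts 51.2% also occur in other genes, mainly Ifit3b, so fragments of these copies can have been split.

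The MX proteins are dynamin-like GTPases that trap viral nucleocapsids, and Mx1 is known to be disrupted in C57BL/6 mice. Mx2 rose from 0.392 to 1.32 FPKM (authors' deposited table, log2 1.75 ± 0.31, q = 0.000287). Mx1, at 0.0935 and 0.156 FPKM, was not tested by the authors. The reference annotation (GENCODE M21) gives Mx2 as a polymorphic pseudogene on chromosome 16 at 97535308 to 97560900.

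Guanylate-binding proteins (GBPs) are large GTPases that coat vacuoles and bacteria and break them open, and all 7 listed genes were called higher. In the authors' deposited table they summed to 128 and 236 FPKM, a ratio of 1.84. Gbp2 went from 30.2 to 71.1 FPKM (log2 1.24 ± 0.15), the largest rise in FPKM of any of the 44. For Gbp3 the levels were 22.4 and 43.9 FPKM (log2 0.97), for Gbp7 48.4 and 83.1 FPKM (log2 0.78) and for Gbp5, which is known to promote inflammasome activation, 10.9 and 17.4 FPKM (log2 0.67). Smaller rises were given for Gbp4 (6.24 to 8.20 FPKM, log2 0.39), Gbp9 (4.82 to 6.16 FPKM, log2 0.35) and Gbp6 (5.41 to 6.29 FPKM, log2 0.22, q = 0.0431) in the authors' deposited table. These last 3 calls were lost with normal p-values. Gbp2 and Gbp7 each share a locus in the table with another row, and at unshared loci 5 of 5 GBP genes were called higher.

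The size of the GBP rises divided by gene cluster, a split made after the values were seen. Gbp2, Gbp3, Gbp5 and Gbp7 lie within chromosome 3 (142493978 to 142638008, mm10), and their log2 changes ran from 0.67 to 1.24. Gbp4, Gbp6 and Gbp9 lie within chromosome 5 (105077630 to 105293698), and theirs ran from 0.22 to 0.39. The ranges do not overlap, but the split was chosen on these same values, so this is a description and no support for it. The difference was not tested, since the table holds no values per library. Of the GBP genes outside the list, on chromosome 3 Gbp2b was called higher (0.312 to 0.803 FPKM, log2 1.36), while on chromosome 5 Gbp8 (log2 0.01) and Gbp10 (log2 0.03) were not called and Gbp11 was called lower (0.642 to 0.440 FPKM, log2 -0.55) in the authors' deposited table. The call of Gbp11 was lost with normal p-values. Over all 11 GBP rows, 5 of 5 on chromosome 3 and 3 of 6 on chromosome 5 were called higher, where 19.0% of all tested rows were. With normal p-values the 5 on chromosome 3 kept their calls and the 3 on chromosome 5 lost theirs. The chromosome 3 genes also started higher, at 10.9 to 48.4 FPKM for the 4 listed ones against 4.82 to 6.24 FPKM for the 3 on chromosome 5. Of the 50-base words of Gbp6 transcripts 70.7% occur in other genes, Gm43302, Gbp10 and Gbp4 leading, and the share is 7.70% for Gbp4, 8.05% for Gbp9 and, on chromosome 3, 12.7% for Gbp7, so values in both clusters can share fragments.

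Immunity-related GTPases (IRGs) act on vacuoles that hold parasites; Iigp1 is an effector and the Irgm and Igtp proteins regulate it. Of the 4 listed genes 2 were called higher. Iigp1 rose from 9.98 to 19.9 FPKM (authors' deposited table, log2 0.99 ± 0.16) and Irgm1 from 54.9 to 74.0 FPKM (log2 0.43 ± 0.14). Igtp stood at 29.0 and 27.8 FPKM (log2 -0.06 ± 0.15, q = 0.638) and Irgm2 at 5.15 and 5.58 FPKM (log2 0.11 ± 0.16, q = 0.381), and neither was called. Igtp and Irgm2 are neighbours on chromosome 11, and their annotated exons overlap on the same strand (Irgm2 at 58199618 to 58222782, Igtp at 58199556 to 58207591). Irgm1 lies elsewhere on that chromosome, at 48861968 to 48871683.

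**Figure D3:**
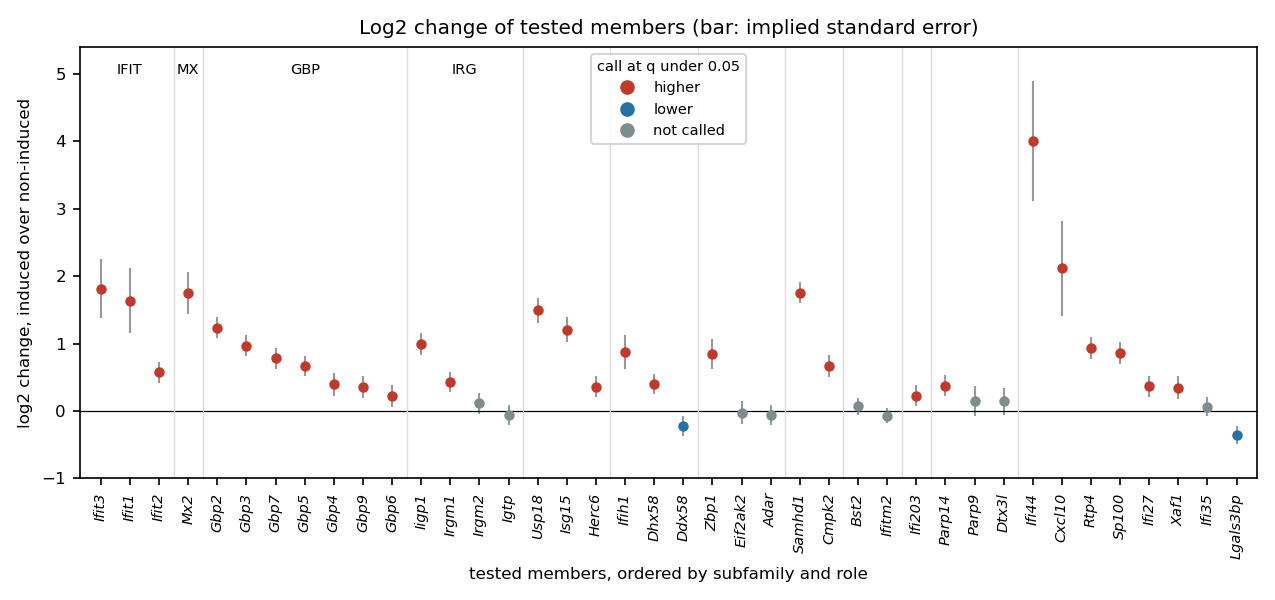
Log2 change of the 40 tested genes (y axis), grouped by subfamily and role, with bars of 1 implied standard error and colours for the authors' call at q under 0.05. All 7 GBP and all 3 IFIT genes lie above 0, whereas the IRG genes run from -0.06 (Igtp) to 0.99 (Iigp1).

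The ISG15 system attaches the ubiquitin-like protein ISG15 to other proteins, and its 3 listed genes were called higher. Isg15 went from 2.69 to 6.19 FPKM (authors' deposited table, log2 1.20 ± 0.19). Usp18, the protease that removes ISG15 and also blocks the type I interferon receptor, went from 1.64 to 4.61 FPKM (log2 1.49 ± 0.19). Herc6, the mouse ligase, went from 7.48 to 9.60 FPKM (log2 0.36 ± 0.15), a call lost with normal p-values. The enzymes upstream in this pathway, fixed in a list of other interferon-stimulated genes, were Ube2l6 (22.8 to 34.5 FPKM, log2 0.60, called higher) and Uba7 (log2 0.02, not called) in the authors' deposited table.

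The RIG-I-like helicases sense viral double-stranded RNA, and 2 of the 3 were called higher and 1 lower. Ifih1, which encodes MDA5, rose from 0.306 to 0.560 FPKM (authors' deposited table, log2 0.87 ± 0.25). Dhx58, which encodes the regulator LGP2, rose from 10.9 to 14.4 FPKM (log2 0.39 ± 0.15). Ddx58, which encodes RIG-I, fell from 9.72 to 8.32 FPKM (log2 -0.23 ± 0.15, q = 0.0276). The calls of Dhx58 and Ddx58 were lost with normal p-values. Ddx58 was more abundant per length than Ifih1 in both groups.

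Of the other genes that act on nucleic acids, Zbp1, a sensor of Z-form RNA that can trigger necroptosis, rose from 5.55 to 9.93 FPKM (authors' deposited table, log2 0.84 ± 0.22). Eif2ak2, the kinase PKR that stops translation, stood at 121 and 119.6 FPKM (log2 -0.02 ± 0.17), and Adar, the editor that marks self RNA, at 26.4 and 25.4 FPKM (log2 -0.05 ± 0.15). Neither was called, and Eif2ak2 was among the most abundant of the 44 in both groups.

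Genes of nucleotide metabolism limit the building blocks of viral genomes. Samhd1, which hydrolyses deoxynucleotides, rose from 5.05 to 17.0 FPKM (authors' deposited table, log2 1.75 ± 0.16), 3.37-fold and the highest test statistic of the 44 (11.2). Its RefSeq promoter held no ISRE core and 1 GAS match, 235 bases before the start site. Cmpk2 rose from 2.20 to 3.49 FPKM (log2 0.67 ± 0.16). Its neighbour Rsad2, which encodes viperin and lies beside it on chromosome 12, was listed at 0.0164 and 0.149 FPKM, about 8.2 and 76 fragments, and was not tested by the authors.

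Membrane restriction factors stop viruses at entry or at release, and neither gene that Cuffdiff tested was called, also at an unadjusted p under 0.05. Bst2, which encodes tetherin, stood at 83.7 and 87.8 FPKM (authors' deposited table, log2 0.07 ± 0.12, q = 0.587), and Ifitm2 at 143 and 136 FPKM (log2 -0.07 ± 0.11, q = 0.592). Ifitm3 was listed at 0 in both groups and was not tested. Of the 50-base words of Ifitm2 transcripts 48.5% occur in other genes, and 10.0% of those of Ifitm3, so reads of this family can be misplaced among copies, and the 0 for Ifitm3 can be a failed estimate.

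The p200 proteins Ifi203 and Ifi204 belong to a family of DNA-binding proteins with sensors such as AIM2. Ifi203 went from 59.8 to 70.2 FPKM (authors' deposited table, log2 0.23 ± 0.15, q = 0.0182), a call lost with normal p-values. Ifi204, at 0.0418 and 0.163 FPKM, was not tested. PARP9 and DTX3L form a complex that modifies proteins in antiviral signalling, and their genes on chromosome 16 overlap on opposite strands. Parp9 (25.7 and 28.4 FPKM, log2 0.15) and Dtx3l (20.7 and 22.9 FPKM, log2 0.14) were not called there, and Parp14, beside them, went from 13.5 to 17.6 FPKM (log2 0.38 ± 0.15), a call lost with normal p-values. The values of Parp9 and Dtx3l are given for 1 shared locus in the table.

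Of the remaining 8 genes 6 were called higher, among them Ifi44 and Cxcl10, which had the largest log2 changes of the 40. Ifi44, an interferon-stimulated gene of uncertain function, went from 0.0298 to 0.478 FPKM (authors' deposited table, log2 4.0 ± 0.90, q = 0.000800), from about 14 to 240 fragments. Cxcl10, a chemokine for activated T cells, went from 0.135 to 0.584 FPKM (log2 2.12 ± 0.71, q = 0.00321). Cxcl10 shares its locus in the table with Art3 and Cxcl11. These 2 changes carry the widest errors of the 40. Rtp4, a receptor transporter, went from 5.69 to 10.9 FPKM (log2 0.94), and Sp100, a nuclear body protein, from 8.90 to 16.2 FPKM (log2 0.86), in the authors' deposited table. Xaf1, which promotes cell death, rose from 5.15 to 6.55 FPKM (log2 0.35) and Ifi27, a small membrane protein, from 136 to 176 FPKM (log2 0.37, q = 0.00570), both calls that were lost with normal p-values. Ifi27 shares its locus with its paralog Ifi27l2a, which was itself called higher (134 to 222 FPKM) there, a call also lost with normal p-values. Ifi35 stood at 36.3 and 38.0 FPKM (log2 0.07) and was not called. Lgals3bp, a secreted galectin ligand, fell from 45.4 to 35.5 FPKM (log2 -0.35 ± 0.14), a call lost with normal p-values.

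Relative rises were larger where the starting level was lower, and low genes were tested on unequal terms. Of the 44 genes, 10 started under 1 FPKM, and 6 of these were tested. Of all rows above 0 and under 0.1 FPKM only 74 of 2747 were tested, and 64.9% of the tested ones were called higher, and every tested row there had a log2 change above 0. Ifi44 was the only tested effector gene in that range, and Rsad2, Ifi204 and Mx1 were the untested ones. Between 0.1 and 1 FPKM all 5 (Ifit1, Cxcl10, Ifit3, Ifih1 and Mx2) were tested and called higher, where 24.2% of tested rows were. In that range 925 of 1325 rows were tested, so testing was still partial.

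At higher starting levels nearly every row was tested, 3062 of 3070 between 1 and 10 FPKM and 6570 of 6575 from 10 FPKM. Between 1 and 10 FPKM 14 of 16 effector genes were called higher, where 22.0% of tested rows were, and their median log2 change was 0.62 against 0.01. From 10 FPKM 9 of 18 were called higher, where 16.1% of tested rows were, with a median log2 change of 0.19 against -0.03. Within the 34 genes that started at 1 FPKM or more, 23 were called higher and 2 lower. Spearman's rho between starting FPKM and log2 change was -0.65 over the 40 tested genes and -0.46 over these 34. Over all tested rows above 0 it was -0.13 (10628 rows) and from 1 FPKM -0.07 (9629 rows). The starting value enters both measures and the points share their libraries, so the coefficients are descriptions. Gbp2, Gbp7 and Gbp3 stood out from this trend, with high starting levels and rises of 2.35-, 1.72- and 1.96-fold.

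**Figure D4:**
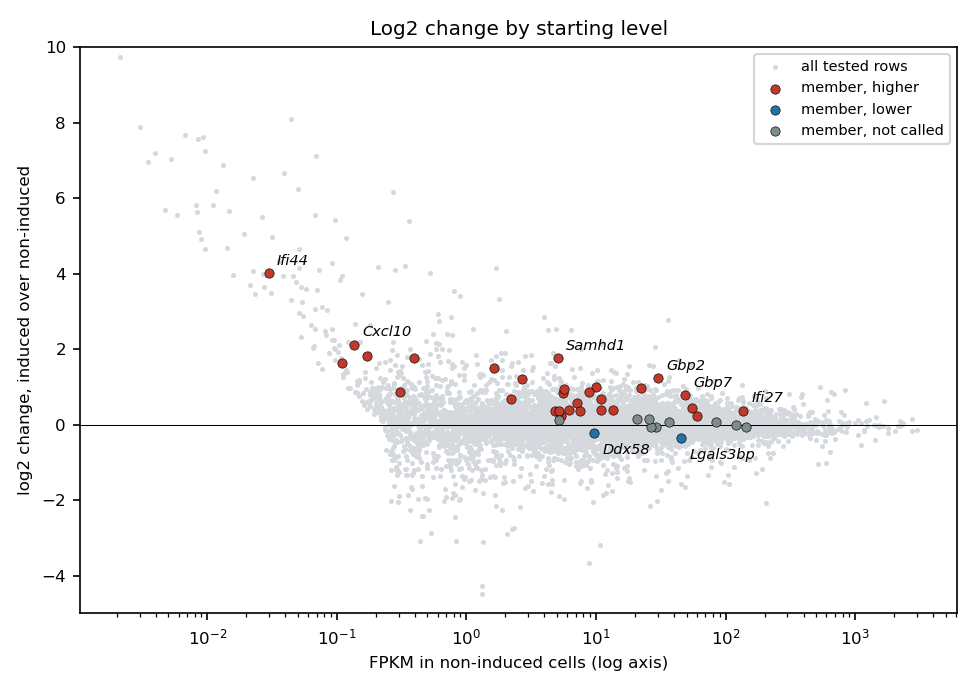
Log2 change against FPKM in non-induced cells (log axis) for all tested rows above 0 in both groups (grey) and the tested effector genes (coloured by call). Under 0.1 FPKM every tested row lies above 0, and the effector genes from 10 FPKM run from -0.35 (Lgals3bp) to 1.24 (Gbp2).

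Counted in FPKM, the gain came mostly from a few abundant genes. In the authors' deposited table the 44 genes summed to 1013 FPKM before and 1243 FPKM after induction, 1.23-fold. Gbp2 (40.9 FPKM), Ifi27 (39.3 FPKM), Gbp7 (34.7 FPKM), Gbp3 (21.5 FPKM) and Irgm1 (19.2 FPKM) made up 67.7% of the net rise. Of these, Gbp2, Ifi27 and Gbp7 are at shared loci, and the call of Ifi27 was lost with normal p-values. The 10 genes under 1 FPKM, with their larger fold changes, added 3.06 FPKM together.

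Genes that make or transmit interferon signals were described from lists drawn up for the pathway. All 21 interferon ligand genes, Ifnb1, Ifng and the Ifna family among them, were untested; the authors' deposited table lists 20 at 0 in both groups and Ifnz at 0 before and 0.0191 FPKM after induction. Values of 0 can be failed estimates, and secreted interferon was not measured. Of 12 receptor, kinase and STAT genes, all tested, 4 were called higher and 1 lower. Jak2 (11.3 to 17.1 FPKM, log2 0.59), Stat2 (6.91 to 8.47 FPKM, log2 0.29), Tyk2 (12.1 to 14.6 FPKM, log2 0.27) and Jak1 (46.9 to 55.9 FPKM, log2 0.25) rose, and Ifnlr1, the type III interferon receptor, fell from 1.53 to 0.583 FPKM (log2 -1.40) in the authors' deposited table. The calls of Stat2, Tyk2 and Jak1 were lost with normal p-values.

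Among IRF genes, counted with the cofactor genes Irf2bp1, Irf2bp2 and Irf2bpl, 4 of 11 tested were called higher and 1 lower. Irf7, a factor that amplifies interferon responses, rose from 1.06 to 1.70 FPKM (log2 0.68), Irf1 from 46.8 to 61.8 FPKM (log2 0.40), Irf9 from 15.1 to 18.4 FPKM (log2 0.28) and Irf2bp2, a cofactor, from 28.1 to 32.4 FPKM (log2 0.21), and Irf4 fell from 100.5 to 62.9 FPKM (log2 -0.68), in the authors' deposited table. Irf8 (86.4 and 96.4 FPKM) was not called. The calls of Irf1, Irf9 and Irf2bp2 were lost with normal p-values. Among sensing adaptors and kinases 3 of 11 tested were called higher, the DNA receptor gene Tlr9 (log2 1.67), its trafficking partner Unc93b1 (1.16) and Traf6 (0.26, lost with normal p-values), while Mavs (-0.25, the adaptor of RIG-I and MDA5) was not called, and no gene was lower at an unadjusted p under 0.05.

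Effector families outside the 44 genes moved to different extents. Of 8 tested OAS and RNase L genes 6 were called higher, Oas2 (log2 4.21), Oas3 (2.94) and Oasl2 (1.39) leading. Of 12 tested TRIM genes 5 were called higher, Trim34a (0.80), Trim12a (0.72), Trim30d (0.62), Trim12c (0.60) and Trim30a (0.55). These 5 lie together on chromosome 7. Trim30b, near 0 before induction (0.00586 and 0.273 FPKM), was tested and not called, but was called higher with normal p-values. Of 15 MHC class I and antigen processing genes 5 were called higher, all by less than 1.5-fold, Tapbp (0.45), H2-T23 (0.39), Tap1 (0.31), Psmb9 (0.27) and H2-Q4 (0.26). Of 9 negative regulators 4 were called higher and 2 lower; the Usp18 described above and Ptpn6 (0.49) led the rises and Socs3 (-0.61) was lower. Among 37 tested rows of other interferon-stimulated genes 20 were called higher and 6 lower, with Gvin1 counted in 2 rows, both lower. The measurable rises were led by Pyhin1 (2.17) and Slfn8 (1.61). Ifitm1 was also called higher, listed at 0 before and 0.257 FPKM after induction in the authors' deposited table. Its log2 change has no finite value, and the 0 can be a failed estimate. Ly6a fell most, from 134 to 72.3 FPKM (-0.89), the only lower call of this list kept with normal p-values. All these shares stand beside 19.0% called higher and 16.1% called lower over all tested rows. With normal p-values, where 9.00% of all rows were called higher, the higher calls were 6 of 12 for TRIM, 5 of 8 for OAS, 11 of 37 for other interferon-stimulated genes, 2 of 9 for negative regulators and 2 of 11 for sensing adaptors. In the same setting 1 of 15 MHC class I genes and 1 of 12 receptor, kinase and STAT genes were called higher. Of the 11 IRF and cofactor genes 1 was called higher. These shares were close to that background.

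**Figure D5:**
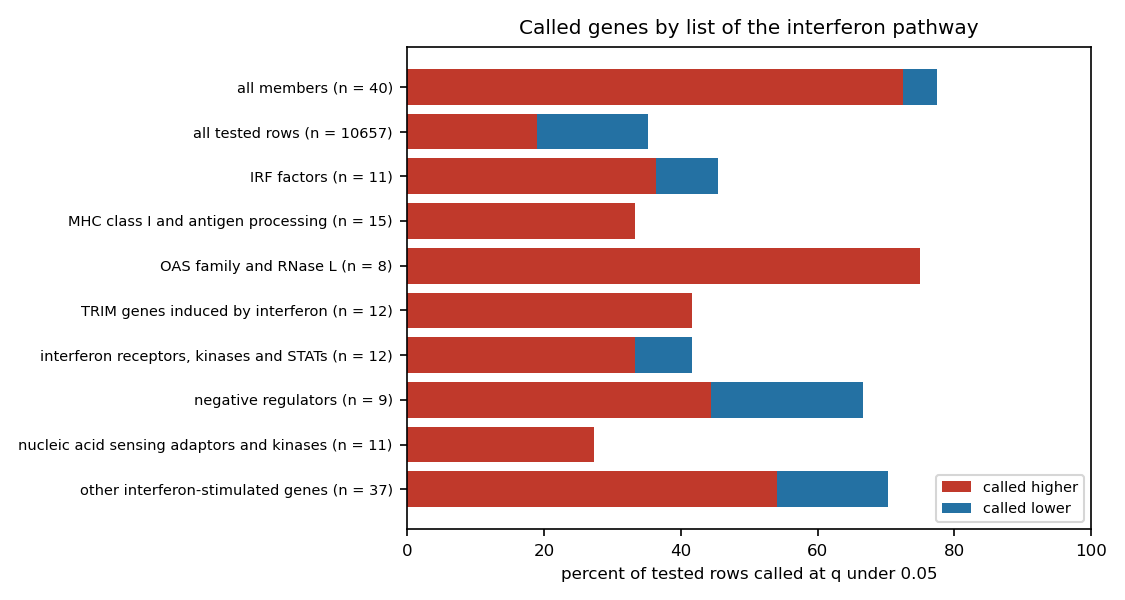
Percent called higher (red) and lower (blue) of tested rows at q under 0.05 in the effector list and each pathway list (cell type markers not drawn), with the number tested in brackets, the 44-gene list at the top and all tested rows below it. The effector genes (72.5% higher) and the OAS genes (6 of 8 higher) have the longest red bars of the lists drawn, and all tested rows reach 19.0%.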

How the data were processed

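The authors deposited 1 Cuffdiff gene table with FPKM per group, its test statistic (a score), log2 fold change, p-value and q-value; Trim Galore 0.2.8.1, TopHat2 2.0.9, Cufflinks, Cuffdiff 2.1.1 and build mm10 come from the submitters' processing notes. For the annotation and strand setting, nothing is given in the sources used here. Log2 changes were recomputed from the deposited FPKM with no pseudocount, and Benjamini-Hochberg q-values recomputed over the 10657 tested rows matched the deposited ones (largest difference 5.15e-07). The smallest p-value is 5e-05. No test per gene was added, since the table holds no value per library. Alternatives included normal p-values from the deposited statistic (29 unreadable statistics left out), filters on FPKM and on shared loci, and pseudocounts.

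The 44 genes and all lists were chosen with earlier results of these data known, so no list was tested for enrichment. All tested members are named. Of each pathway list the called genes with the 3 largest changes are named, or all called genes where 5 or fewer. Further genes (Irf8, Mavs, Ube2l6, Uba7, Ifi27l2a, Ly6a, Tgtp1, Tgtp2, Trim30b and the other GBP genes) were named after their values were seen. Places and transcript lengths came from GENCODE M21 on the same assembly. Fragment numbers are FPKM times the longest transcript divided by the step worth 1 fragment, estimated from genes with 1 transcript of at least 1 kb; 70.1% and 63.4% of the lowest values were whole to within 0.15, where an even spread gives 30%, so they are approximate. Copies were measured by 50-base words shared with transcripts of other genes. The Benjamini-Hochberg adjustment and the normal p-values were checked on simulated test statistics, and the other steps were not. Python 3.11.15, pandas 2.3.3, numpy 2.4.6, scipy 1.17.1 and matplotlib 3.10.9 were used.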

Additional observations from a re-analysis of the deposited data

How the results depend on the processing

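The deposited values pool the libraries of a group, so leaving out a library could not be run. No paired analysis was possible because the table holds group values only. The count of 29 genes called higher became 18 at a minimum of 1.5-fold and 9 at 2-fold, and lay between 20 and 29 under the other alternatives, including q under 0.01, FPKM minimums of 1 and 5, unshared loci and, chosen after seeing the data, leaving out the 10 genes with at least 10% of their 50-base words in other genes (23 of 32). The 2 lower calls became 1 at q under 0.01, 0 at 1.5-fold, 0 at 2-fold and 0 with normal p-values (1 at an unadjusted p under 0.05), and stayed at 2 under the rest. The median log2 change lay between 0.33 and 0.51 in all alternatives, and the median of all tested rows was -0.01.

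GBP genes called higher fell from 7 to 4 both with normal p-values and at 1.5-fold, and IRG genes from 2 to 1 at 1.5-fold. With borders at 0.3, 3 and 30 FPKM the lowest starting level held 4 called of 4 tested and the highest 5 of 10. With normal p-values the higher calls became 1 for IRF and cofactor genes, 1 for MHC class I and 1 for receptors and STATs. They became 2 for negative regulators (lower 1) and 11 for other interferon-stimulated genes (lower 1). Near 0 the depth limits the changes, and a pseudocount of 1 moved 10 of 40 log2 changes by more than their implied standard error. The spread between libraries is unknown.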

Other observations

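Schlafen genes, a family of interferon-inducible regulators of RNA and growth that was looked at after its values were seen, divided in the same comparison. Slfn2 went from 33.4 to 70.2 FPKM (log2 1.07 ± 0.14), Slfn8 from 0.781 to 2.39 FPKM (log2 1.61) and Slfn9 from 11.7 to 16.3 FPKM (log2 0.48) in the authors' deposited table, all called higher. Slfn3 stood at 11.7 and 11.8 FPKM (log2 0.01, q = 0.977) and was not called, and Slfn1, Slfn4 and Slfn5 were under 0.1 FPKM in both groups and untested.

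Of the p200 family outside the 44 genes, Pyhin1 went from 11.0 to 49.8 FPKM (log2 2.17 ± 0.16) and Mndal from 61.0 to 86.2 FPKM (log2 0.50 ± 0.15) in the authors' deposited table. Mndal transcripts lead the genes that share 50-base words with Ifi203 and Ifi204, so part of these values can come from shared fragments, which was not tested. Aim2 (0.0546 and 0.0950 FPKM) was untested.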
